A study of Rattus norvegicus with 6 samples.

Results

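The monocarboxylate transporters described here are 9 genes: 7 of the SLC16 family (Slc16a1, Slc16a4, Slc16a7, Slc16a10, Slc16a11, Slc16a12 and Slc16a13) and the sodium-coupled pair Slc5a8 and Slc5a12. Their probes were those whose array annotation names a RefSeq transcript of the gene, which gave 11 probes for 8 of the genes out of 61657 non-control probes. No probe was matched to Slc16a12, a creatine transporter, and it has no value here. The genes were chosen with the NDMA and control values already known, so their own differences are a description and carry no p-value. The samples were kidney cortex RNA of 6 rats (Sprague-Dawley, all male, 5 weeks old when purchased), each hybridised to 1 single-colour Agilent array. The NDMA group (n = 3) received N-nitrosodimethylamine, a carcinogenic nitrosamine whose metabolites methylate DNA, over 4 weeks at a dose of 4 mg/kg/day, and the control group (n = 3) received water for the same time. All animals were on a basal diet with tap water.

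Monocarboxylates are small organic acids such as lactate, pyruvate and the ketone bodies, which are filtered by the glomerulus and recovered almost completely by the proximal tubule. The sodium-coupled transporters of the SLC5 family bring them into the tubule cell across the brush border, and proton-coupled transporters of the SLC16 family, with Slc16a1 (MCT1) as the best known, let them pass down their gradient at the other side of the cell. Some SLC16 members carry other cargo: Slc16a10 (TAT1) carries aromatic amino acids and thyroid hormone.

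Between 43016 and 46248 probes were well above background on each array. Taken across features, which are not replicates, Pearson correlations lay between 0.992 and 0.995 for arrays of the same group and between 0.985 and 0.990 for arrays of different groups. NDMA animal 1 shared slide 1 with the 3 controls, whereas NDMA animals 2 and 3 were on slide 2. Slide and treatment are thus partly mixed, and values are given by animal. In a fit with the slide as a fixed block, a difference is that of NDMA animal 1 from the control mean. The raw 75th percentile of signal was 1310 and 1299 on slide 2 and between 993 and 1053 on slide 1. Signals below are log2 values relative to the 75th percentile of the same array, so that 0 stands for a probe at that percentile, and levels are not compared between probes. Differences are NDMA minus control on the log2 scale, with the moderated standard error (SE) of limma.

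Every measured monocarboxylate transporter was lower on average in the NDMA group, by amounts that were small for all and that exceeded the spread between animals for only some. All 8 genes, each read by its brightest probe, had a difference below 0, as did 58.7% of the 31915 features tested, and the range was from -0.55 to -0.14. Their median was -0.32, where the median of all features was -0.05. All 11 probes passed the filter on dim signals and were well above background on all 6 arrays, and all 11 lay below 0. In 4 of the 8 genes every NDMA animal was below every control, and in 0 every NDMA animal was above. For comparison, the groups did not overlap downwards in 16.5% of all features and upwards in 11.1%. In the fit over all features 2 of the 8, Slc16a11 and Slc16a13, were past the adjusted threshold of 0.05 and lower, against 0.476% of features that were called lower and 2.52% called higher. By probe, 6 of 11 were lower without overlap (16.0% of the 43118 probes tested) and 3 were called lower (0.485%). In whole cortex, fewer cells of a type and less RNA per cell cannot be told apart. Nothing is read from these counts about the family or about the called genes, since the genes were picked from this comparison. The calls are thus a description and not a test.

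**Figure D1:**
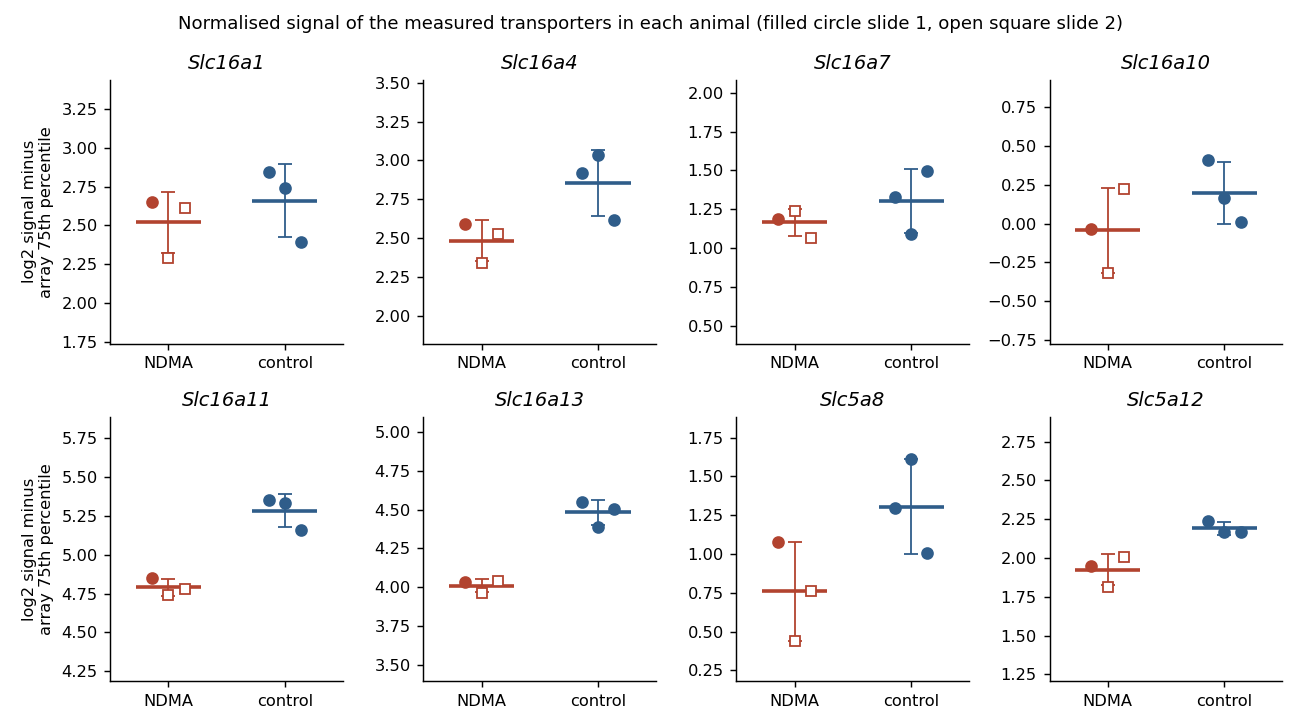
Normalised signal (log2 minus the 75th percentile of the array) of the 8 measured transporters, by brightest probe, with NDMA animals on the left and controls on the right of each panel. Points are animals 1 to 3 from left to right, filled circles slide 1 and open squares slide 2, the horizontal line is the mean and the bar the SD. The groups are separate for Slc16a4, Slc16a11, Slc16a13 and Slc5a12 and overlap in the other 4 panels; all panels span the same height.

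Of the transporters that face the tubule lumen, Slc5a8 had the lowest difference of the 8 genes and also a wide spread. Slc5a8 (SMCT1) couples the uptake of lactate, pyruvate and short-chain fatty acids to sodium, and in the mouse kidney it lies in the later part of the proximal tubule. Its signal was 1.08, 0.44 and 0.76 in NDMA animals 1 to 3, and 1.30, 1.61 and 1.00 in controls 1 to 3. NDMA animal 1 lay above control 3, so the groups overlapped, and the difference was -0.55 ± 0.21 (SE, n = 3 per group, 1.46-fold lower). On slide 1, NDMA animal 1 differed from the control mean by -0.23, and the mean of the slide 2 animals differed by -0.70.

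Slc5a12 (SMCT2), a sodium-coupled carrier of lower affinity that lies nearer the start of the proximal tubule in the mouse, had a smaller and tighter difference. Its brighter probe read 1.95, 1.82 and 2.01 in NDMA animals and 2.24, 2.17 and 2.17 in controls. The groups did not overlap at this probe, with a difference of -0.27 ± 0.09 (1.20-fold lower). At the other probe the signals were 1.55, 1.32 and 1.51 in NDMA animals and 2.15, 1.89 and 1.54 in controls. There NDMA animal 1 was just above control 3, and the difference was -0.40 ± 0.17. The direction was thus the same at both probes while the separation of the groups was seen at 1 of them.

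The DNA before the annotated starts of these sodium-coupled genes differs in base composition, and both stretches are shown. The sequences were taken from RefSeq (rat build GRCr8), plus strand, 5′ to 3′, with each CG dinucleotide in capitals. The Slc5a8 stretch is chr7:25160030-25160279, 250 bases with 25 CG dinucleotides, and the Slc5a12 stretch is chr3:117633637-117633884, 248 bases with 0.
Slc5a8: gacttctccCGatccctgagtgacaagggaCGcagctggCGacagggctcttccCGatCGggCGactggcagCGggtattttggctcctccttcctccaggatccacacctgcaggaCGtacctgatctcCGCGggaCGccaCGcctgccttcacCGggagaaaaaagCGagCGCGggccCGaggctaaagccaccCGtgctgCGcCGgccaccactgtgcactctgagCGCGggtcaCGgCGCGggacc
Slc5a12: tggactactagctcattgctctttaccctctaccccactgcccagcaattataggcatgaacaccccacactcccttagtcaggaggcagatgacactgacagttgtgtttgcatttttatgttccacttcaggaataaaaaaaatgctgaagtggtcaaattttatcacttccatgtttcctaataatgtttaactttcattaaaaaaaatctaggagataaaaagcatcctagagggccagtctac
At least 25 CG dinucleotides in the 250 bases before the start were found in 10.4% of 27457 rat promoters, whose median count was 6. Of the SLC16 genes, Slc16a1 and Slc16a10 had 33 and 22 in this window, Slc16a11 had 8, Slc16a7 had 6 and Slc16a4 had 3. Slc16a12, which has no signal value here, had 0, and no stretch was available for Slc16a13. All measured members lay below 0 and were picked from this comparison, so no split by this count could differ in direction. Methylation was not measured.

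Among the SLC16 genes, Slc16a11 and Slc16a13 differed by the most relative to their spread. Slc16a11 (MCT11) is a proton-coupled carrier whose human gene is linked to the risk of diabetes. At its brighter probe (A_44_P375616) it read 4.85, 4.74 and 4.78 in NDMA animals and 5.36, 5.34 and 5.16 in controls. The lowest control was above the highest NDMA animal, and the difference was -0.49 ± 0.09 (1.41-fold lower). Its other probe (A_64_P112579) read 4.76, 4.62 and 4.70 in NDMA animals and 5.28, 5.25 and 5.10 in controls, a difference of -0.52 ± 0.09. Both probes of Slc16a11 thus gave the same separation and nearly the same size.

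Slc16a13 (MCT13), shown to carry lactate in mouse liver, was read by 1 probe (A_44_P1038885), at 4.03, 3.96 and 4.04 in NDMA animals and at 4.55, 4.39 and 4.51 in controls. The groups were separate, with SDs of 0.04 and 0.08, and the difference was -0.47 ± 0.08 (1.39-fold lower). Slc16a11 and Slc16a13 lie on chromosome 10, and in the GRCr8 gene table the span of Slc16a11 falls within that of Slc16a13. Whether a probe of 1 gene also reads transcripts of the other was not tested. NDMA animal 1, hybridised beside the controls, differed from their mean by -0.44 for Slc16a11 and -0.45 for Slc16a13, and the slide 2 animals by -0.52 and -0.48. The slide 1 values rest on 1 NDMA animal, and slide 2 held no control, so the part of the slide was not tested. Neither gene stayed past the adjusted threshold in any of the 6 fits without 1 animal (differences from -0.56 to -0.46 for Slc16a11 and from -0.52 to -0.44 for Slc16a13) or with the slide as a fixed block.

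Slc16a4 (MCT5), a family member whose cargo is not settled, was separate between groups at both of its probes. The brighter probe read 2.59, 2.34 and 2.53 in NDMA animals and 2.92, 3.03 and 2.62 in controls. The gap between the highest NDMA animal and the lowest control was small, and the difference was -0.37 ± 0.13 (1.29-fold lower). The dimmer probe read 2.21, 1.77 and 2.09 in NDMA animals and 2.55, 2.61 and 2.35 in controls, with a difference of -0.49 ± 0.14. On slide 1 alone the brighter probe differed by -0.27, and by -0.43 for the slide 2 animals. With Slc5a12 and Slc16a11 this made 3 genes with a second probe, and in all 3 the probes had the same sign. All probes were read on the same arrays, with values known when the genes were picked, so this is not separate support.

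The carriers best known for lactate and pyruvate, Slc16a1 and Slc16a7, differed by no more than their spread between animals. Slc16a1 (MCT1), the widely expressed carrier of lactate, pyruvate and ketone bodies, read 2.65, 2.29 and 2.61 in NDMA animals and 2.84, 2.74 and 2.39 in controls. The values interleaved, and the difference was -0.14 ± 0.16. NDMA animal 1 lay at the control mean (-0.01), and the slide 2 animals averaged -0.21 from it. Slc16a7 (MCT2), a carrier with a high affinity for pyruvate, read 1.19, 1.24 and 1.07 in NDMA animals and 1.33, 1.09 and 1.50 in controls. Here too the groups overlapped, with a difference of -0.14 ± 0.12. Slc16a10, which lets aromatic amino acids leave the tubule cell towards the blood, read -0.04, -0.32 and 0.22 in NDMA animals and 0.41, 0.17 and 0.01 in controls. NDMA animal 3 was above controls 2 and 3, and the difference was -0.24 ± 0.17, so 3 of the 6 SLC16 genes measured had overlapping groups.

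**Figure D2:**
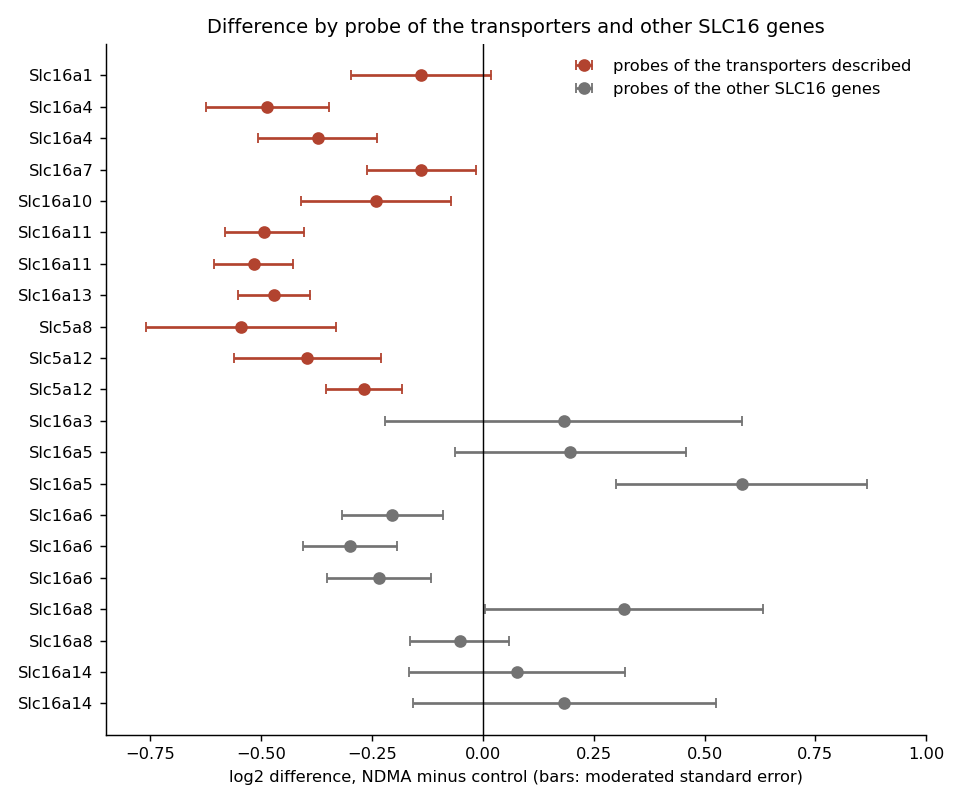
Log2 difference (NDMA minus control, horizontal axis) at each probe that passed the filter, with bars of 1 moderated SE, for the 11 probes of the transporters described (red) and for probes of 5 other SLC16 genes (grey). The red points run from -0.55 to -0.14, and the grey points lie on both sides of 0. The genes in red were picked with these values known.

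The animals did not contribute equally. Of the 3 NDMA animals, animal 2 had the lowest signal in 7 of the 8 genes and animal 3 in 1 (Slc16a7). Over all features with no missing spot, animals 1, 2 and 3 were the lowest of the group in 9328, 11344 and 11233 of 31905. Averaged over the 8 genes, NDMA animals 1 to 3 differed from the control mean by -0.25, -0.47 and -0.28, and the 3 controls lay between -0.11 and 0.08. Control 3 was the lowest control in 6 of the 8 genes. Animal 2 also had the highest mean over 5 measured injured-tubule genes, of which 0 were called, at 1.49 above the control mean on the log2 scale, against 0.29 and 0.30 in animals 1 and 3. The genes did not go one way. The injury gene Havcr1 read -4.33, -0.85 and -4.14 in NDMA animals and -4.91, -3.94 and -4.74 in controls. Spp1, which encodes osteopontin, read 3.81, 5.97 and 4.04 in NDMA animals and 3.24, 3.44 and 3.06 in controls. Clu, which encodes clusterin, read 4.05, 3.15 and 3.49 in NDMA animals and 3.92, 4.58 and 4.21 in controls. Lcn2 read -1.92, -0.67 and -1.82 in NDMA animals and -2.98, -2.46 and -1.22 in controls. Vcam1 read 3.15, 3.13 and 3.21 in NDMA animals and 2.23, 2.61 and 2.87 in controls. Animal 2 was thus the highest NDMA animal for Havcr1, Spp1 and Lcn2 and the lowest for Clu, while the NDMA animals were close together for Vcam1. The part of tubular injury in the transporter values was not tested.

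**Figure D3:**
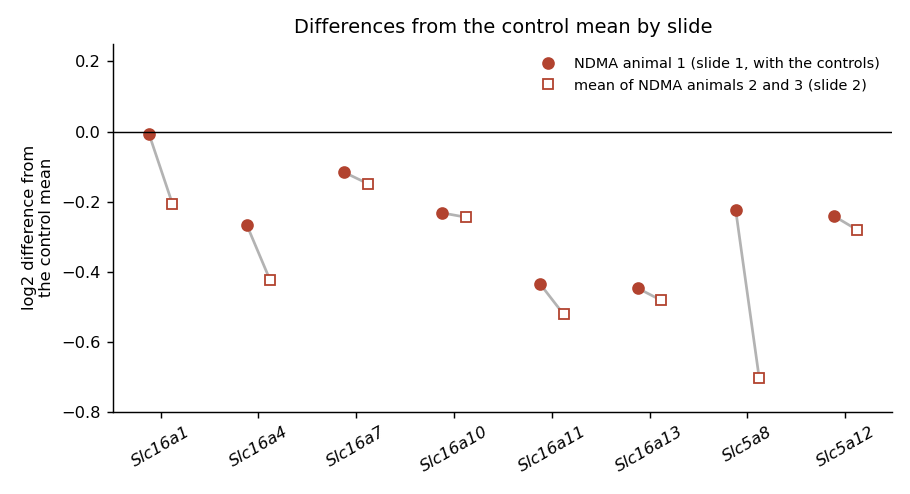
Difference of the NDMA animals from the control mean (log2, vertical axis) for the 8 transporters, split by slide: filled circles are NDMA animal 1, hybridised on slide 1 with the controls, and open squares the mean of NDMA animals 2 and 3 on slide 2. Slc16a11 and Slc16a13 lie near -0.5 on both, whereas Slc5a8 lies at -0.23 on slide 1 and -0.70 on slide 2.

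The other SLC16 genes lay on both sides of 0. The transporters described were picked with these values known, so the contrast with the other SLC16 genes is a description only. Of 6 described, Slc16a9 had no matched probe, and of the 5 measured 0 were called in either direction (limma, adjusted over all features) and 0 had an unadjusted p under 0.05. Their median difference was 0.08, with 2 below 0. Slc16a6 (MCT7), a ketone body carrier in zebrafish, differed by -0.20 ± 0.11 (adjusted p = 0.380). Its other probes differed by -0.30 ± 0.11, with every NDMA animal below every control, and by -0.23 ± 0.12, with overlap, so Slc16a6 had the direction of the transporters described at all 3 probes. Slc16a3 (MCT4), the lactate exporter of glycolytic cells, read 0.83, 1.23 and 0.37 in NDMA animals and 0.24, 0.15 and 1.50 in controls. Control 3 stood above the other controls, and the difference was 0.18 ± 0.40 (adjusted p = 0.836). Slc16a5, Slc16a14 and Slc16a8 differed by 0.20 ± 0.26, 0.08 ± 0.24 and -0.05 ± 0.11. The second Slc16a14 probe differed by 0.18 ± 0.34. The second Slc16a8 probe, well above background on 4 arrays, differed by 0.32 ± 0.31, so the probes of Slc16a8 had opposite signs. With a normexp background correction, Slc16a5 differed by -0.02 and Slc16a8 by -0.21, and by 0.07 and -0.11 when quantile scaling was added. The second Slc16a5 probe read -4.80, -4.74 and -3.98 in NDMA animals and -4.81, -5.54 and -4.92 in controls, a difference of 0.58 ± 0.28 with groups that only just failed to overlap.

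Of 3 chaperones, 3 scaffold and urate transport genes and 13 lactate and pyruvate enzymes measured, 0 were called, and their medians were -0.04, -0.32 and -0.12. Basigin (Bsg), the glycoprotein that brings Slc16a1 to the cell surface, read 7.14, 6.71 and 6.94 in NDMA animals and 7.35, 7.19 and 7.30 in controls. Its groups were separate, with a difference of -0.35 ± 0.13 that was not called (adjusted p = 0.216). With the slide as a fixed block, and so for NDMA animal 1 alone, it was -0.14. Embigin (Emb), the partner of Slc16a7, and neuroplastin (Nptn), a relative of basigin, differed by 0.05 ± 0.12 and -0.04 ± 0.08. The scaffold gene Pdzk1 differed by -0.22 ± 0.11 and the urate transporter gene Slc22a12, which exchanges urate for lactate in the human kidney, by -0.79 ± 0.35, with overlapping groups for Slc22a12 (adjusted p = 0.288). The lactate dehydrogenase subunits Ldha and Ldhb differed by -0.03 ± 0.09 and -0.05 ± 0.09. For the mitochondrial pyruvate carrier, Mpc1 differed by -0.30 ± 0.08 (adjusted p = 0.127) and Mpc2 by -0.12 ± 0.09.

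Of the 46 measured genes of the pathway list, which held these partners, the other SLC16 genes, enzymes, creatine genes and regulators, 1 was called lower and 0 higher, against 0.476% and 2.52% of all features. Their median difference was -0.19, with 36 below 0 (58.7% of all features were). In 16 every NDMA animal was below every control and in 1 above, against 16.5% and 11.1% of all features. The called gene was Dio1, the deiodinase that activates thyroid hormone, which the list sets beside the thyroid hormone carrier Slc16a10. Dio1 read 3.45, 3.31 and 3.89 in NDMA animals and 4.48, 4.40 and 4.45 in controls, a difference of -0.89 ± 0.16 (1.86-fold lower, limma adjusted p = 0.0416). When animals were left out in turn, the call held in 1 of 6 fits, that without NDMA animal 3 (adjusted p = 0.0282, against 0.0915 to 0.137 in the others), and in the fit with the replicate number as a block the adjusted p was 0.0924. Slc3a2 and Slc7a8, the subunits of an exchanger that works beside Slc16a10, differed by -0.19 ± 0.10 and -0.31 ± 0.14 (adjusted p = 0.381 and 0.300). With the slide as a fixed block, and so for NDMA animal 1 alone, they differed by -0.09 and -0.06. All 5 ketone body enzymes lay below 0 and 0 were called, with Oxct1, the enzyme that activates ketone bodies for oxidation, at -0.45 ± 0.11 (adjusted p = 0.102). Ppara, a regulator of fatty acid oxidation, had the lowest value of the list, -1.20 ± 0.23 (adjusted p = 0.0542). Of the creatine genes, which share the cargo of Slc16a12, the transporter Slc6a8 differed by -0.02 ± 0.13 and the synthesis gene Gatm by 0.20 ± 0.21.

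**Figure D4:**
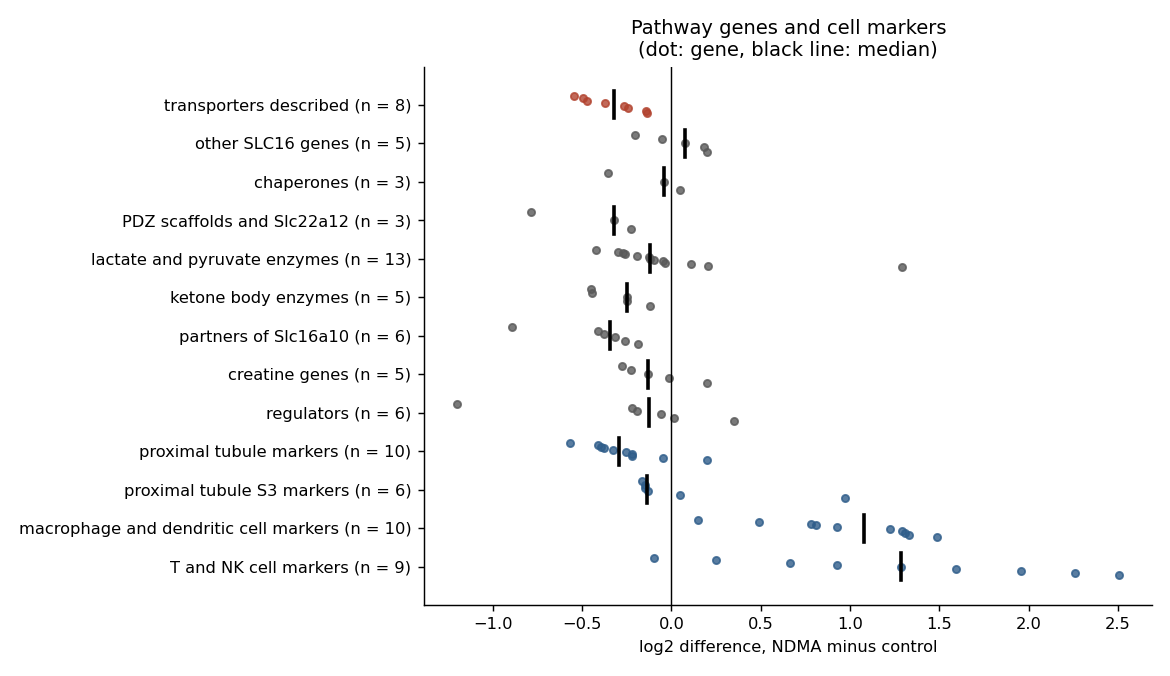
Log2 difference (NDMA minus control, horizontal axis) of each gene by list, with the transporters described in red, the other pathway lists in grey and cell marker lists in blue; black lines are medians. The 8 transporters have a median of -0.32 and the 10 proximal tubule markers one of -0.29, while macrophage and T cell markers lie mostly above 0.5.

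Cell markers differed by list. For comparison with the counts below, 0.476% of all features were called lower and 2.52% higher. Of 10 proximal tubule markers 9 lay below 0 (58.7% of all features did), with a median of -0.29, and 1 was called lower and 0 higher. In 7 of the 10 every NDMA animal was below every control, as in 16.5% of all features, so this separation was not particular to the transporters. The called marker was Lrp2, which encodes the endocytic receptor megalin (-0.57 ± 0.10, limma adjusted p = 0.0448), and its call was lost in each of the 6 fits without 1 animal (adjusted p from 0.0576 to 0.145). Averaged over the 10 markers, NDMA animals 1 to 3 differed from the control mean by -0.16, -0.37 and -0.25, and the controls lay between -0.07 and 0.07, so animal 2 was again the lowest. Of 6 markers of the last proximal segment 0 were called, with a median of -0.14 and a range from -0.16 to 0.97. Averaged over these 6 markers, the controls themselves lay between -0.56 and 0.34 from the control mean. Macrophage and dendritic cell markers had a median of 1.08, with 7 of 10 called higher, those with the smallest p being Cd68 (1.48 ± 0.14), C1qb (1.33 ± 0.12) and Ptprc (1.29 ± 0.12). T and NK cell markers had a median of 1.29, with 6 of 9 called higher, led in the same way by Cd247 (1.96 ± 0.13), Cd3d (1.29 ± 0.12) and Cd3g (2.26 ± 0.21). The markers of this list that were not called were Cd8a (0.93 ± 0.24), Gzmb (0.25 ± 0.14) and Nkg7 (-0.10 ± 0.19). Of 5 measured proliferation genes 4 were called higher, led by Ccnb2 (1.60 ± 0.17), Ube2c (1.60 ± 0.20) and Ccnb1 (1.32 ± 0.24). When animals were left out in turn, Ccnb2 was called in each of the 6 fits, Ube2c in 4 (not without control 1 or control 2) and Ccnb1 in 1 (that without NDMA animal 1). The slide as a fixed block leaves the difference to NDMA animal 1, so a lost call cannot tell the slide from fewer animals. With this block none of the named marker calls was kept. The adjusted p was then 0.0885, 0.0940 and 0.0885 for Cd68, C1qb and Ptprc, and 0.0536, 0.0940 and 0.0940 for Cd247, Cd3d and Cd3g, with differences from 1.13 to 2.01. For Ccnb2, Ube2c and Ccnb1 it was 0.128, 0.161 and 0.343, with differences of 1.49, 1.37 and 0.97, and for Lrp2 0.363. Slide 1 alone gives the same differences and is no separate check. The calls of the 3 proliferation genes were lost with the replicate number as a block (limma adjusted p = 0.0540, 0.0644 and 0.0868). So was that of Lrp2 (0.138). Podocyte, endothelial, distal and collecting duct markers had 0 calls, with medians of 0.21, -0.08, -0.09 and -0.19. Fibroblast, B cell, neutrophil, red cell and injured-tubule markers also had 0 calls, with medians of -0.07, 0.02, 0.01, 0.05 and 0.75. The part of these cells in the transporter values was not tested.

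The genes whose profiles over the 6 arrays lay closest to the lowest and the highest of the transporters were sought among 12168 named genes, as the root mean square distance between log2 values centred on the control mean. For Slc5a8 they were Adam9, Necab2 and Phykpl, at distances of 0.093, 0.132 and 0.134 and with differences of -0.54, -0.50 and -0.60. For Slc16a7 they were Rhbdf1, Chchd6 and Tubgcp6, at distances of 0.034, 0.039 and 0.056 and with differences of -0.15, -0.13 and -0.18. These are likenesses over 6 arrays only.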

How the data were processed

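The 6 arrays were grouped as NDMA and control by title, with 3 animals in each group per the labels' protocols. The deposited processed intensity came from Agilent Feature Extraction (10.7 in the submitters' processing notes, 10.7.1.1 per the file headers), which, per the file headers, subtracts background and removes a spatial trend within an array. The value table deposited by the authors is a ratio on a linear scale, equal to that intensity over the array's 75th percentile (largest log2 deviation 0.00174); its columns had medians of 0.115, 0.112 and 0.114 for NDMA and 0.112, 0.110 and 0.114 for control. It was not centred by gene and was used as an alternative.

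Processed intensities were taken to log2 minus the array's 75th percentile over non-control probes. Spots flagged as outliers were set missing (18 values). A probe was kept if either group had it well above background in all 3 animals (43118 probes), and each gene was read by its brightest probe. Names came from the RefSeq table of GRCr8 by unversioned accession, matching 15360 of 16372 NM accessions. The array annotation uses build rn4, so gene coordinates are not given, and promoter positions are those of GRCr8. The comparison used lmFit and eBayes of limma 3.58.1 (R 4.3.3, two-sided) with Benjamini-Hochberg adjustment over 31915 features, threshold 0.05. An exact permutation test of 3 against 3 cannot go below p = 0.1. The fit was checked on simulated arrays with known changes. These held independent noise and no slide effect, so the check does not cover the slide. The number of arrays limits the precision.

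The transporters, the pathway and marker lists and the rule for named genes were chosen with earlier results of these data known. The rule names every transporter probe, every other SLC16 gene (1 is not reported here), 13 fixed partners, called pathway genes, up to 3 called markers per list and the nearest profiles. Ppara, Oxct1, Ldhc, Havcr1, Spp1, Clu, Lcn2, Vcam1, Cd8a, Gzmb and Nkg7 were named after their values were seen. Alternatives were other scalings and background corrections, filters, slide and replicate blocks, variance and probe summaries, and leaving out each animal.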

Additional observations from a re-analysis of the deposited data

How the results depend on the processing

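All 8 transporters kept a difference below 0 in each of the 20 alternative settings, and the median over them ran from -0.40 to -0.24. The settings reuse the arrays from which the genes were picked, so the kept sign is a description only. With the slide as a fixed block or on slide 1 alone, Slc16a1 was at -0.01 and Slc5a8 at -0.23. Both settings leave the difference to NDMA animal 1, so their counts of calls cannot tell the slide from fewer animals. Without 1 animal, Slc16a1 reached -0.02 and Slc16a10 -0.10 (both without NDMA animal 2) and Slc16a7 -0.04 (without control 3). Slc16a11 was at -0.41 with quantile normalisation and Slc16a13 at -0.39 with normexp and quantile. Each of these 2 genes was past the threshold in 9 of the 20 settings. The cause was not tested. The count over all features was 957 (84.1% higher). It was 371 with no filter on dim probes, 67 with the slide as a fixed block, 0 on slide 1 alone (limma, with 3502 at an unadjusted p under 0.05) and from 364 to 749 without 1 animal (364, 520 and 505 without control 1, 2 and 3, and 749, 458 and 367 without NDMA animal 1, 2 and 3). With normexp on the median signal, chosen after the data were examined because the files used here hold no mean signal, 67.0% of 1093 were higher. The planned normexp from the mean signal was not run. Of the pathway genes 1 was called. The count was 0 with quantile normalisation, with no filter on dim probes, with the slide as a fixed block and on slide 1 alone (7, 8, 4 and 4 at an unadjusted p under 0.05), 2 with either normexp setting and with probes well above background on all arrays, 4 with a trended and robust variance, and from 0 to 1 without 1 animal. That 1 was Dio1 without NDMA animal 3, but without control 1 it was Ldhc, higher (1.60, adjusted p = 0.0450), whose probe was well above background on 4 of the 6 arrays and differed by 0.22 with normexp and 0.37 with normexp and quantile. With the mean over probes it was Ppara (adjusted p = 0.0427) and not Dio1 (0.0637). With the replicate number as a block 351 features passed, and of the pathway genes 1, Ppara (adjusted p = 0.0372) in place of Dio1 (adjusted p = 0.0924), while the calls of Slc16a11 and Slc16a13 were lost at a median over the transporters of -0.32. Same-numbered animals were not paired by the labels, and their deviations correlated at 0.04, -0.05 and 0.03 for numbers 1 to 3.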
